A study of Arabis alpina with 12 samples.

Results

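A set of 61 of the 35465 annotated genes of Arabis alpina had fewer transcripts in pep1-1 plants than in wild-type plants in both organs sequenced, leaf and shoot apex. Genes were selected on the ratio of mean CPM (reads of a gene per 1000000 reads of the library, with 0.5 added to each mean): wild type had to be at least 1.5 times pep1-1 in leaf and in apex alike, and the highest pep1-1 library had to lie below the lowest wild-type library in each organ. This is 0.172% of all genes, and 0.279% of the 21852 genes whose wild-type mean was high enough (0.250 CPM) to reach that ratio. Ratios below are log2 values, pep1-1 over wild type. Because the genotype difference chose these genes, it is given below as a description, without a test.

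Arabis alpina is a perennial relative of Arabidopsis. The 4 groups were wild-type (WT) leaf, pep1-1 leaf, WT apex and pep1-1 apex, with 3 libraries each. All plants, mutants included, are labelled as cultivar Pajares, and were 2 weeks old per the sample labels (10 days per the series text), raised on soil in a long photoperiod at 22 °C and sampled at ZT8, 8 h into the light period. The labels do not say whether replicates were separate plants or pools, and they give 1 mutant line only, so effects of the mutation and of any other difference between that line and Pajares cannot be told apart. Titles of the mutant libraries read PEP1, so every direction here rests on the genotype field.

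PEP1 is the orthologue of FLC of Arabidopsis, a MADS-box transcription factor that binds regulatory DNA and represses genes that promote flowering. In Arabis alpina it keeps plants vegetative before winter cold, and cold lowers its expression. The files pair no identifier with a name, so no function is given for any gene, PEP1 itself was not checked, the organ labels could not be checked against marker genes, and 2 identifiers are printed while all other loci are given by position in the deposited tables.

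Library totals, with 1 transcript per gene, ran from 19746210 to 43695184 reads, so that 1 read was worth 0.0229 to 0.0506 CPM. No replicates were near-copies of each other: chi-square per degree of freedom between them was 5.38 to 83.2. It was highest between the pep1-1 apex libraries, at 38.6, 58.7 and 83.2, and 5.38 to 24.1 within the other groups. The same rule applied to leaf, whatever the apex values, gave 132 genes (0.372%), and applied to apex, whatever the leaf values, 265 genes (0.747%). Both counts include the 61 genes. The mirror rule gave 77 genes higher in pep1-1 in both organs, and 0 genes were lower in one organ and higher in the other.

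The gene with the lowest ratios was Aa_G117060 on chromosome 6 (4661693 to 4663219). It stood at 28.2, 28.2 and 57.1 CPM in the 3 WT leaf libraries and at 0.358, 0.0890 and 0.415 CPM in the pep1-1 leaf libraries. In apex it stood at 30.7, 17.7 and 37.9 CPM in WT and at 0, 0.1002 and 0.183 CPM in pep1-1. Both organs thus showed a well-expressed transcript in WT, with its highest value in replicate 3, and a nearly silent one in the mutant. Mean WT CPM was 132 times the pep1-1 mean in leaf and 304 times in apex, where the 3 mutant libraries held 12 reads together against 2359 in WT.

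A further 3 genes shared with Aa_G117060 an on-off pattern, defined as a pep1-1 mean under 0.3 CPM in both organs with a WT mean of at least 1 CPM in at least 1 organ. A gene on chromosome 6 (19562629 to 19564983) had 63, 36 and 67 reads in the WT leaf libraries, 41, 29 and 14 reads in the WT apex libraries and 0 reads in all 6 pep1-1 libraries. Taking 3 reads over the 3 pep1-1 libraries of an organ as the limit that a count of 0 allows, it was at least 49.8-fold lower in leaf (limit 0.0342 CPM) and at least 37.6-fold lower in apex (limit 0.0259 CPM). It was the only gene of the 61 with no mutant read. These limits cover counting error only.

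A gene on chromosome 5 (18704112 to 18717847), which has the longest annotated span of the set at 13736 bp, stood at 1.88, 2.11 and 3.08 CPM in WT leaf and 1.54, 1.38 and 3.34 CPM in WT apex. In pep1-1 it kept 7 reads over the leaf libraries and 10 over the apex libraries, 28.9 and 24.3 times less than in WT. A short gene on scaff_73268_1 (8857 to 9391) had 1.55, 2.11 and 0.872 CPM in WT leaf and 0.594, 1.41 and 1.57 CPM in WT apex, against means of 0.183 ± 0.0789 and 0.140 ± 0.0724 CPM in pep1-1 leaf and apex (SD, n = 3 each). These 2 genes were expressed at a low level in WT, and their mutant values rest on few reads. The scaffold gene kept reads in every pep1-1 library, and its mean was only 8.23 times below WT in leaf and 8.53 times in apex. In this count of 4 on-off genes, the ceiling of 0.3 CPM matters: 2 genes stayed under 0.1 CPM and 25 under 1 CPM.

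Models next to the on-off genes were of 3 kinds: expressed in both genotypes, nearly silent in both, or, for the scaff_73268_1 gene, another of the 61, described with the pairs below. The gene 36 bp to the right of the chromosome 6 gene with no mutant reads (19565020 to 19567744) had 11.8 CPM in WT apex and 10.4 CPM in pep1-1 apex, with a log2 ratio of -0.17 there and -0.08 in leaf. The gene on its left (19551960 to 19553514) had ratios of -0.04 in leaf and -0.07 in apex. The neighbours of Aa_G117060 and of the chromosome 5 gene on both sides were at or under 0.0498 CPM in WT apex, so those transcripts stood alone among nearly silent models.

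Large but incomplete reductions made up the rest of the 10 genes with the lowest mean ratio. Aa_G111060 on chromosome 2 (25116053 to 25120037) had 47.4, 53.8 and 51.7 CPM in WT leaf and 5.98, 7.83 and 7.67 CPM in pep1-1 leaf. In apex it stood at 22.8, 24.8 and 24.6 CPM in WT and 5.18, 4.89 and 4.46 CPM in pep1-1. Replicates were tight here, and the mutant kept a clear signal, 7.12 times below WT in leaf and 4.97 times below in apex.

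A gene on chromosome 8 (5765423 to 5770059) had 31.8 ± 1.45 CPM in WT leaf and 6.61 ± 1.05 CPM in pep1-1 leaf, and at 27.1 ± 0.930 and 3.75 ± 1.05 CPM in apex (SD, n = 3 each). A second chromosome 8 gene (5257134 to 5261576) had 7.08 ± 0.370 and 0.594 ± 0.185 CPM in leaf and at 6.37 ± 0.651 and 1.24 ± 0.459 CPM in apex. The first had the lower ratio in apex, 7.24 times below WT against 4.801 times in leaf, and the second had it in leaf, 11.9 times against 5.13 times.

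**Figure D1:**
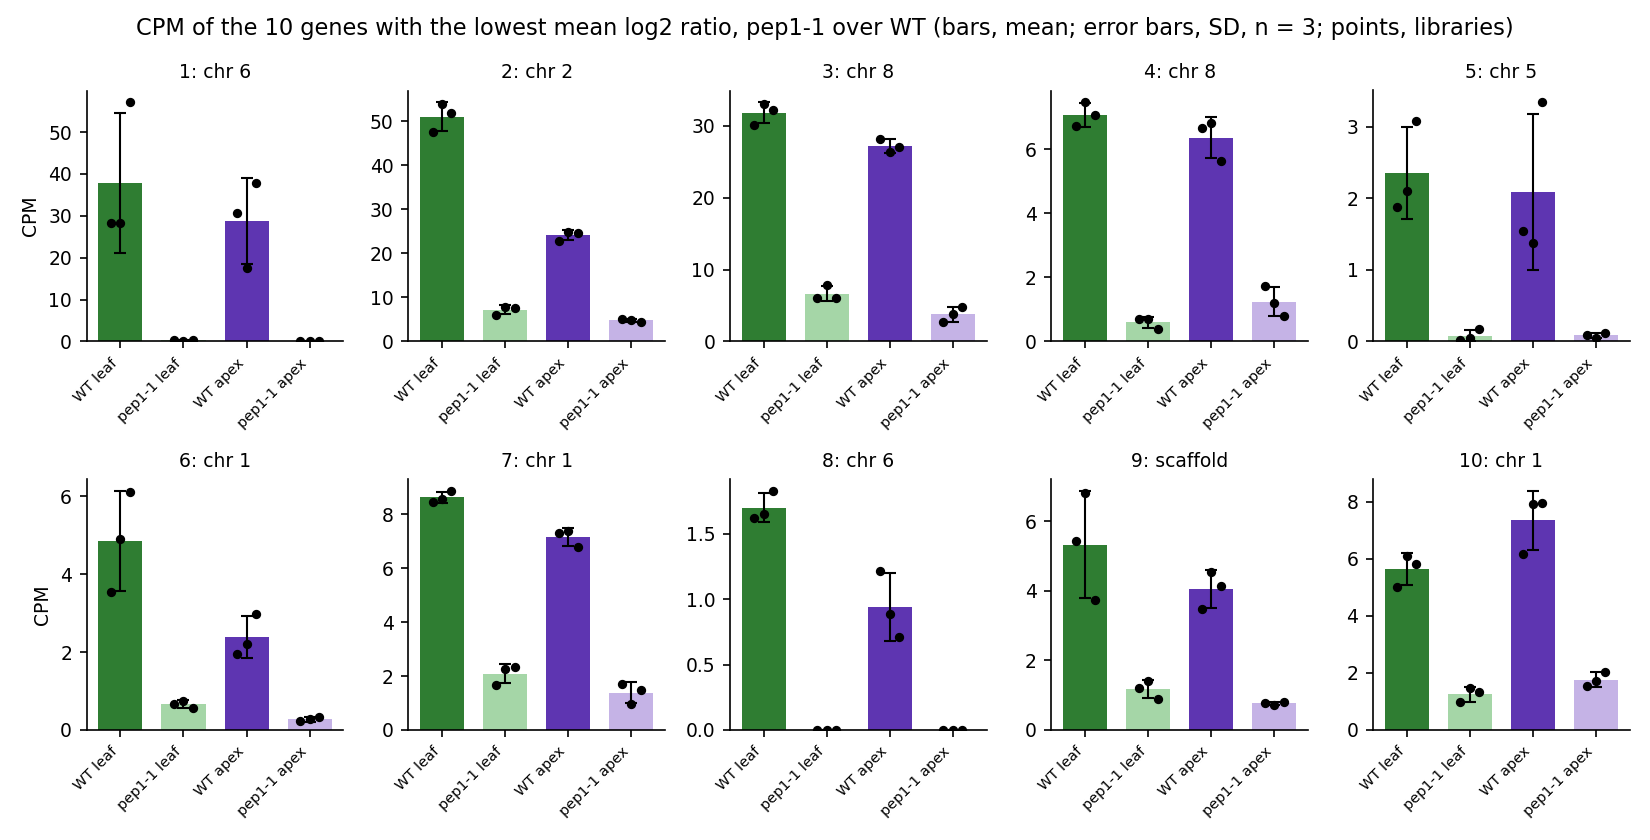
CPM (y axes, each from 0) of the 10 genes with the lowest mean of the leaf and apex log2 ratios, in the 4 groups on the x axes. Bars are means, error bars SD (n = 3) and points single libraries; panel 1 is Aa_G117060, panel 2 Aa_G111060, and panel 8 the gene with 0 reads in all pep1-1 libraries.

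Most of the 61 genes had smaller differences. The median log2 ratio was -1.02 in leaf (range -5.60 to -0.59) and -0.95 in apex (range -5.62 to -0.59), while the median over the 21852 genes able to meet the rule was -0.03 in leaf and -0.07 in apex. A ratio of -1 or less was reached by 32 genes in leaf, by 26 in apex and by 20 in both. Among the 21852 genes 0.192% reached it in leaf and 0.188% in apex, and since the rule used this ratio nothing is read from that. A ratio of -2 or less was reached by 4 genes in both organs, and 23 genes were above -1 in both.

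The 2 organs gave similar ratios for most genes, 47 of 61 differing by less than 0.5 on the log2 scale, with 35 lower in leaf and 26 lower in apex. Part of this closeness follows from the rule, which requires a low ratio in both. The added 0.5 CPM also shrinks the ratios of genes with few reads, so these counts depend on it. Without it, the median WT over pep1-1 ratio of CPM was 2.65 in leaf and 3.14 in apex (60 genes with pep1-1 reads), larger in apex. The widest gap towards apex was a gene on chromosome 3 (8636330 to 8637594). It stood at 1.18, 2.24 and 2.29 CPM in WT leaf and 0.909, 0.801 and 1.04 CPM in pep1-1 leaf, and at 3.18, 5.57 and 10.8 CPM in WT apex and 0.906, 2.46 and 1.24 CPM in pep1-1 apex. Its log2 ratio was -0.77 in leaf and -1.79 in apex, with WT apex libraries spread more than 3-fold. The widest gap towards leaf was a gene on scaff_68662_1 (343 to 3331), with ratios of -1.79 in leaf and -0.62 in apex, where its WT mean was only 0.488 CPM. The difference between organs is built from the ratios that chose the genes, so it was not tested.

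**Figure D2:**
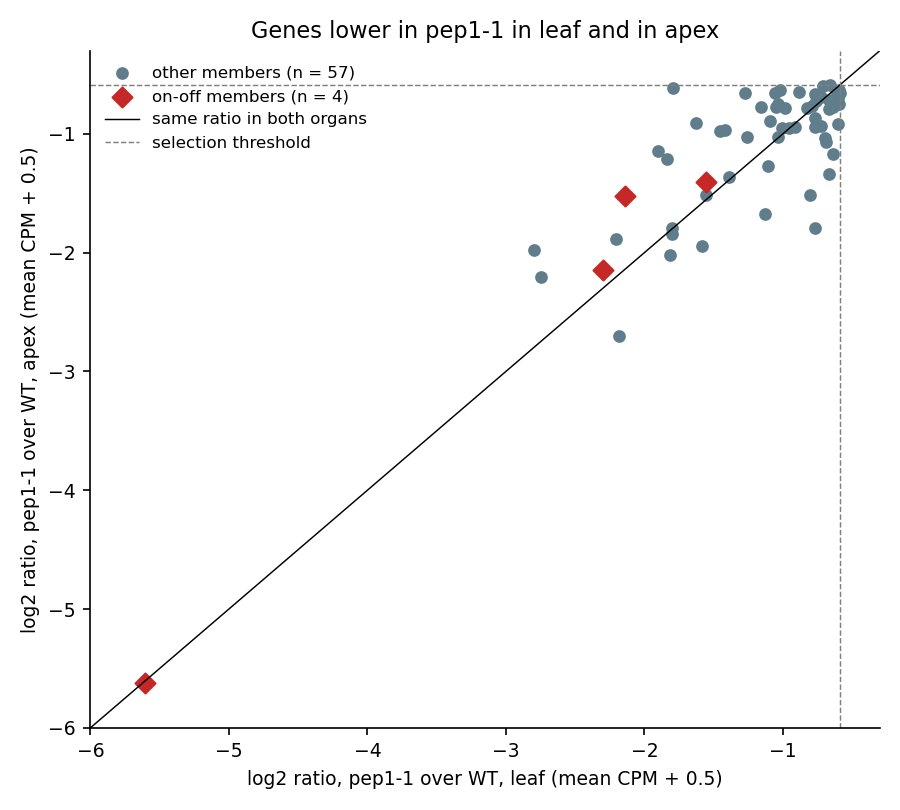
Log2 ratio, pep1-1 over WT, in leaf (x axis) and apex (y axis) for the 61 genes, from mean CPM plus 0.5; dashed lines mark the selection threshold and the solid line equal ratios. Most genes lie between -2 and -0.59 on both axes, the 4 on-off genes are diamonds, and Aa_G117060 lies alone at -5.60 and -5.62.

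Read levels of the set were low. The median WT level was 2.91 CPM in leaf and 1.92 CPM in apex, against 15.7 and 10.8 CPM over the 21852 genes. These levels are reads per gene and not per length, since transcript lengths are not used here; the median annotated span was 2359 bp in the set and 2145 bp over the 21852 genes. In WT leaf 49 genes lay between 1 and 10 CPM, 9 at 10 CPM or above and 3 under 1 CPM, and in WT apex the numbers were 42, 6 and 13. The pseudocount of 0.5 CPM therefore shrinks most of these ratios: with 0.1 CPM in its place the medians of the same genes were -1.31 and -1.44. All 61 genes passed the low-count filter of the organ test below, which used all 12 libraries. With the 6 pep1-1 libraries alone, 55 of them passed it.

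Among the 6 genes with most WT reads, a gene on chromosome 8 (4053431 to 4055791) had 632, 875 and 837 CPM in WT leaf and 516, 519 and 523 CPM in pep1-1 leaf. In apex it stood at 86.8, 111 and 79.8 CPM in WT and 59.5, 73.9 and 42.8 CPM in pep1-1. WT leaf replicate 1 is the low one, and with log2 ratios of -0.59 in leaf and -0.65 in apex the gene lay just inside the threshold. With TMM factors its leaf ratio was -0.54, which put it outside the set. It was kept in 7 of the 12 sets made with 1 library left out. A chromosome 1 gene (22299845 to 22303489) had 59.7 ± 5.11 CPM in WT leaf and 33.96 ± 1.97 CPM in pep1-1 leaf, and at 11.8 ± 3.10 and 3.82 ± 0.877 CPM in apex (SD, n = 3 each).

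The edge of the set was drawn through a continuous range. The last gene inside in leaf other than the chromosome 8 gene above had a ratio of -0.59 (chromosome 3, 333633 to 335691), and the first outside had ratios of -0.58 (chromosome 1, 19690875 to 19692589) and -0.57 (chromosome 8, 1577071 to 1578658). In apex the last inside were at -0.59 (chromosome 8, 5367379 to 5369043, and chromosome 4, 23063273 to 23065643), and the first outside were at -0.58 (chromosome 8, 35655373 to 35658997, and chromosome 3, 20269596 to 20271610). A further 10 genes met both ratios but had overlapping libraries.

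Apex against leaf within each genotype was not a contrast used by the rule, and it compares the transcript levels of these genes between the organs. In WT, 14 of the 61 genes were higher in apex and 16 higher in leaf (edgeR's quasi-likelihood test, Benjamini-Hochberg adjusted p under 0.05 over 23517 genes), and 31 did not pass. Over all genes tested 65.1% passed, 32.1% higher in apex and 32.9% higher in leaf, against 49.2%, 23.0% and 26.2% of the set. On this scaling the set split about evenly between the organs, with a median log2 fold change, apex over leaf, of 0.14 against -0.03 over all genes. Its read levels were lower than those of other genes, and the part of that in its smaller share of calls was not tested.

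In pep1-1, 19 genes were higher in apex and 17 higher in leaf (59.0% of the set), where 68.1% of all genes passed, 33.2% higher in apex and 35.0% higher in leaf. The rule selects for low pep1-1 reads, which limits calls there, and the gene with no pep1-1 reads could not be called. A fit of the 6 pep1-1 libraries alone tested 55 of the 61 genes, with 18 higher in apex and 15 higher in leaf. The same limit applies to the share called in neither genotype. Of the 61 genes, 12 (19.7%) were called higher in apex in both genotypes, 12 (19.7%) higher in leaf in both, 19 (31.1%) in neither, and 0 in opposite directions. Over all genes tested the shares were 29.5%, 30% and 26.3%, and 4 genes (0.017%) had opposite calls. The split depends on how the organs are scaled. TMM factors, which scale libraries so that most genes do not differ, moved the median over all genes by 0.55 in WT and 0.57 in pep1-1 on the log2 scale relative to library totals alone. With library totals 5 genes were higher in apex and 28 higher in leaf in WT, and 8 and 30 in pep1-1. All genes moved the same way, to 17.4% higher in apex and 60.4% higher in leaf in WT and to 17.3% and 61.4% in pep1-1.

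The genes with the strongest apex preference in WT lay on chromosomes 3 and 8. On the TMM scale the chromosome 3 gene (8636330 to 8637594) had 1.004, 1.76 and 1.83 CPM in WT leaf and 3.86, 6.44 and 12.9 CPM in WT apex. Apex exceeded leaf by 2.32 on the log2 scale (SE 0.43; adjusted p = 0.000398 in the edgeR fit). A chromosome 8 gene (25768645 to 25771017) had 2.33, 3.56 and 2.55 CPM in WT leaf and 7.67, 6.62 and 8.02 CPM in WT apex. Here the apex excess was 1.41 (SE 0.23; adjusted p = 0.000118 in the edgeR fit), and in pep1-1 it was 1.68 (SE 0.27). The other 2 of the 4 leading genes, also on chromosome 8, had log2 fold changes of 1.49 (33145763 to 33148982) and 1.37 (38414226 to 38416180). In each of the 4, every WT apex library lay above every WT leaf library. They were picked for large fold changes among the genes called, so nothing is read from this.

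Leaf preference was wider. A gene on chromosome 1 (19674025 to 19676359) had 64.9, 60.1 and 61.5 CPM in WT leaf and 6.45, 6.12 and 3.80 CPM in WT apex on the TMM scale. Its log2 fold change, apex over leaf, was -3.48 (SE 0.23, edgeR adjusted p = 4.58e-08), and in pep1-1 it was -4.26 (SE 0.25). Its neighbour (19684125 to 19688530) was at -3.31 (SE 0.16) in WT, a chromosome 2 gene (2157933 to 2162806) at -3.09 (SE 0.36) and the gene between the chromosome 1 pair (19680058 to 19680525) at -2.71 (SE 0.44). Of the 4, 3 thus adjoin each other. All 4 also passed in pep1-1, as did the chromosome 8 gene with the most reads (4053431 to 4055791), at -2.52 (SE 0.18) in WT and -2.57 (SE 0.18) in pep1-1. The gene at 19680058 had only 6, 0 and 0 reads in the pep1-1 apex libraries.

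**Figure D3:**
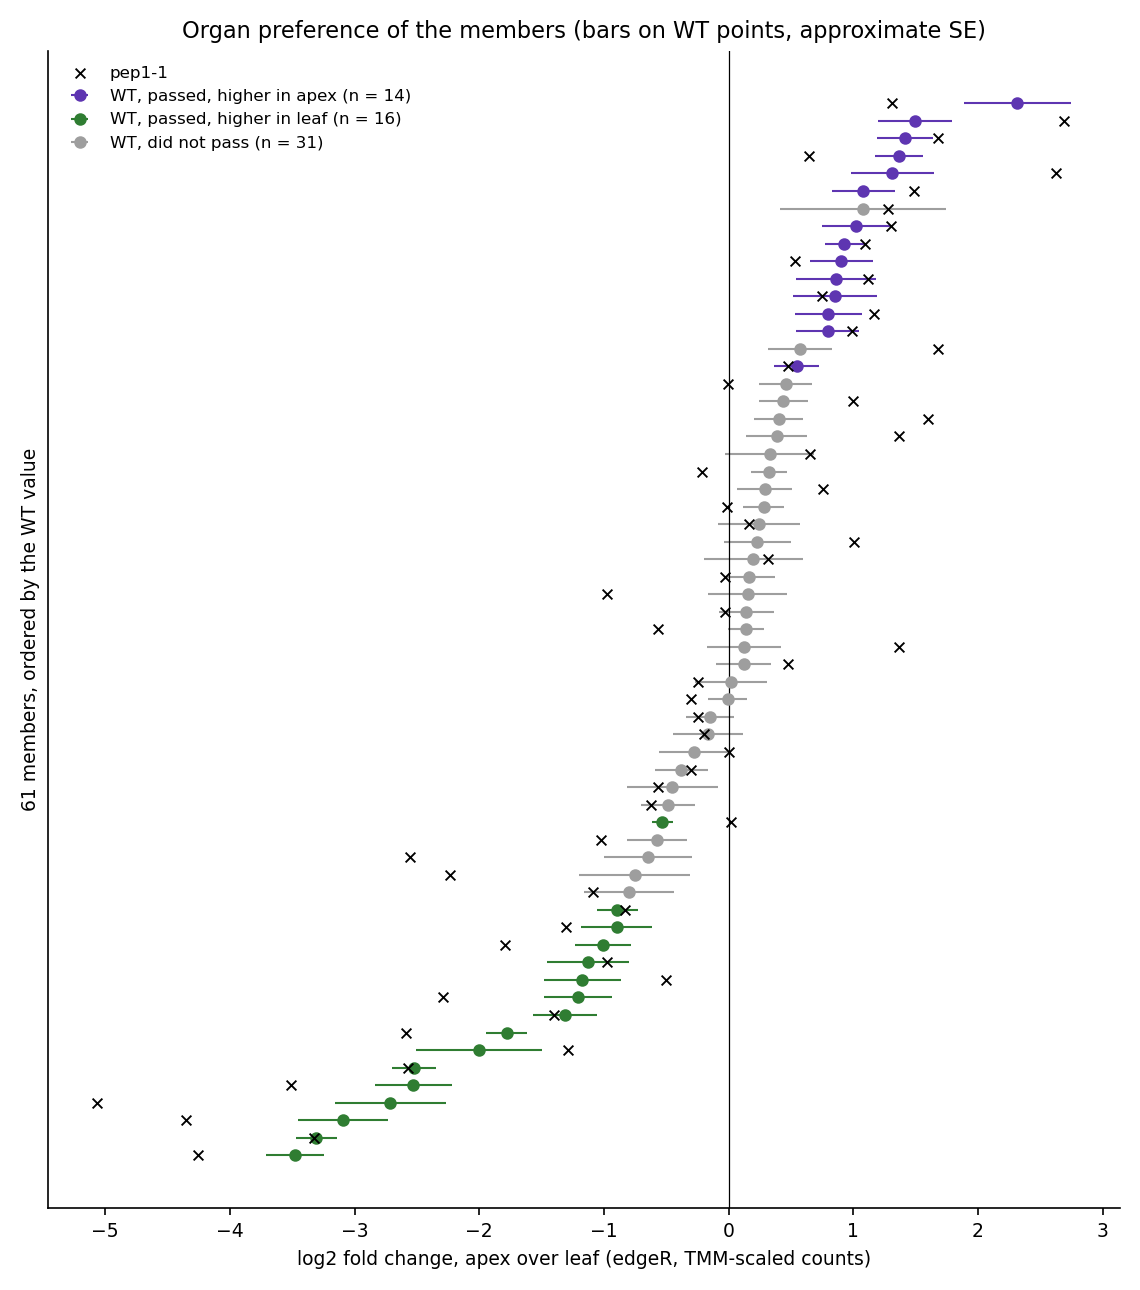
Log2 fold change, apex over leaf, on TMM-scaled counts (x axis) for the 61 genes ordered by their WT value (y axis). Circles are WT with approximate SE, purple for the 14 genes higher in apex, green for the 16 higher in leaf and grey for the 31 that did not pass; crosses are pep1-1.

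The on-off genes showed no organ preference that passed in WT. The WT log2 fold change, apex over leaf, was 0.15 (SE 0.32) for Aa_G117060, 0.33 (SE 0.35) for the chromosome 5 gene, -0.28 (SE 0.28) for the chromosome 6 gene with no mutant reads and 0.20 (SE 0.40) for the scaff_73268_1 gene. With library totals alone the chromosome 6 gene was called higher in leaf, at -0.83. Aa_G111060 was higher in WT leaf than in WT apex, at -0.53 (SE 0.09, edgeR adjusted p = 0.000145), and in pep1-1 its value was 0.02 (SE 0.10).

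The 61 genes were spread over all 8 chromosomes and 10 scaffolds. Chromosome 8 carried 11 of them, 18.0% of the set as of the 21852 genes. Chromosomes 1 and 7 carried 8 each, where their share of those genes would give 7.29 and 5.46, and chromosome 6 carried 4, where it would give 7.23. Scaffolds not placed on a chromosome carried 11 genes, 18.0% of the set against 8.20% of the 21852 genes. None of the 61 spans overlapped another gene model, with 1 transcript used per gene. The share over all genes was not counted, so nothing about the set is read from this.

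Of the 61 genes, 17 (27.9%) had another of the set within 10 kb, in 10 pairs of which 9 had no gene model between them. The share in other gene sets of this size was not counted, so nothing is read from the 27.9%. The pairs formed 7 separate couples and 1 run of 3 genes. Of the 9 adjacent pairs 5 (55.6%) were separated by less than 150 bp, and their median gap was 142 bp, with gaps limited to 10 kb by the definition of a pair. Under the same limit, 21.3% of the 13714 pairs of adjacent models that both had enough WT reads lie that close, with a median gap of 874 bp. The number of pairs depends on the libraries and depth: it was 6 without WT leaf replicate 3, and 6 after every library was thinned to the lowest total. Reads that span 2 close models were not examined, and whether such a couple is 1 transcript annotated in 2 parts was not tested.

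The widest block was the leaf-preferred run on chromosome 1, from 19674025 to 19688530. Its first gene stood at 76.7, 76.6 and 76.9 CPM in WT leaf and 52.4, 44.8 and 50.4 CPM in pep1-1 leaf, scaled to library totals, and its last (19684125 to 19688530) at 34.4, 39.6 and 41.4 CPM in WT leaf and 22.5, 22.8 and 21.7 CPM in pep1-1 leaf. The short middle gene (19680058 to 19680525) had WT means of 4.69 CPM in leaf and 0.475 CPM in apex and pep1-1 means of 2.77 and 0.0625 CPM. Its apex values rest on few reads, 12, 25 and 6 in the WT libraries and 6, 0 and 0 in the pep1-1 libraries. Log2 ratios, pep1-1 over WT, ran from -0.77 to -0.64 in leaf and from -1.17 to -0.67 in apex.

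The run went on by 1 gene that missed the leaf threshold. The next model (19690875 to 19692589) had 68.0 CPM in WT leaf and 45.4 CPM in pep1-1 leaf, and at 3.95 and 1.30 CPM in apex, with ratios of -0.58 in leaf and -1.31 in apex and no overlap of libraries in either organ. The models on both sides of these 4 genes were not lower in pep1-1. The model before them (19645405 to 19648138) had 22.7 CPM in WT and 25.1 CPM in pep1-1 leaf, and the model after them (19697325 to 19699325) at 1.89 and 2.20 CPM.

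**Figure D4:**
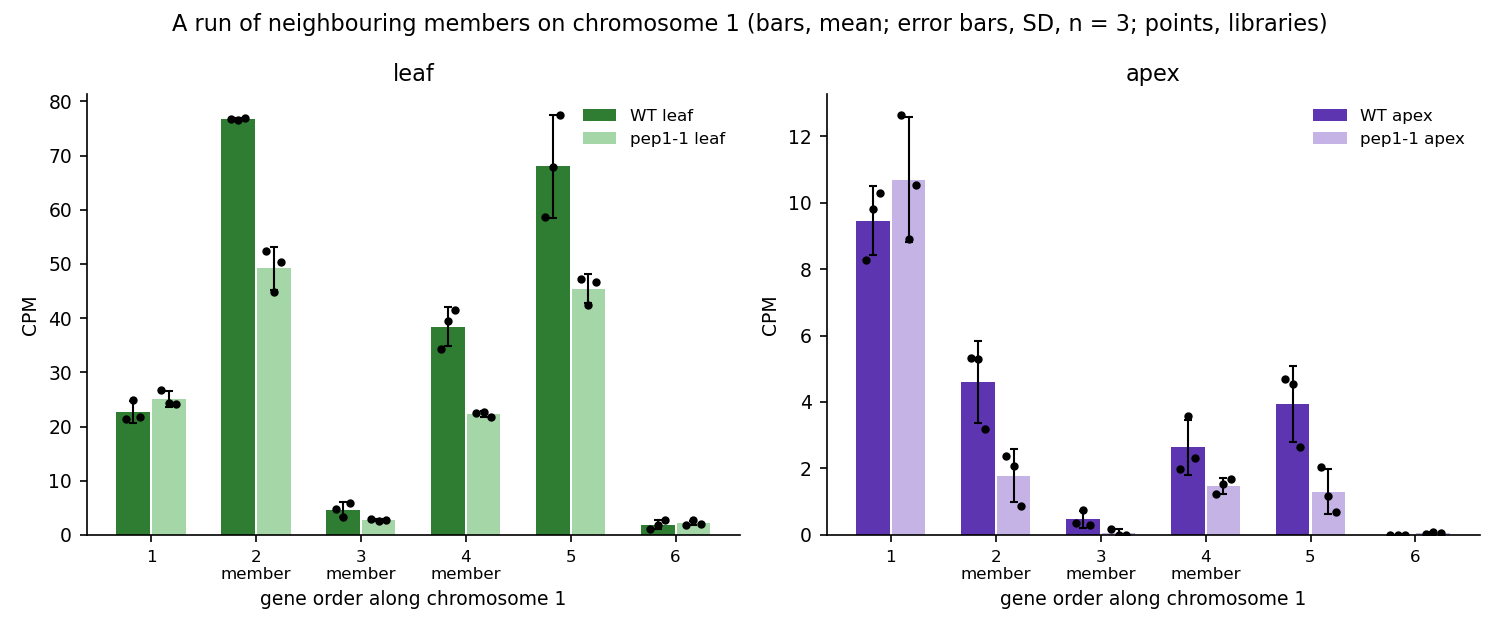
CPM in leaf (left) and apex (right) of 6 consecutive gene models on chromosome 1 (x axes, in gene order; y axes from 0), with bars for means, error bars for SD (n = 3) and points for libraries. Genes 2 to 4 are in the set, gene 5 missed the leaf threshold at -0.58, and WT bars are above pep1-1 bars for genes 2 to 5 in both organs but not for genes 1 and 6.

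Couples of low genes lay closer together. On chromosome 1, the genes at 9309270 to 9310193 and 9310917 to 9313861, 723 bp apart, stood at 4.84 and 8.62 CPM in WT leaf and 0.657 and 2.09 CPM in pep1-1 leaf. Their log2 ratios were -2.21 and -1.82 in leaf and -1.89 and -2.02 in apex. A second chromosome 1 couple (12026933 to 12028478 and 12028832 to 12030136, 353 bp apart) had ratios of -1.80 and -1.84 in leaf and -1.79 and -1.21 in apex. The on-off gene of scaff_73268_1 and its neighbour (9465 to 11571), 73 bp apart, had ratios of -1.56 and -1.80 in leaf and -1.40 and -1.85 in apex. Without the added 0.5 CPM, the genes of the first and of the scaffold couple differed more. WT CPM was 7.38 and 4.13 times pep1-1 in leaf for the first couple and 8.54 and 5.16 times in apex, and for the scaffold couple 8.23 and 4.52 times in leaf and 8.53 and 5.28 times in apex.

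The models around the scaffold couple had small ratios. The model before it (1 to 4341) was at -0.19 in leaf and 0.04 in apex, with overlapping libraries. After it, the gene at 12317 to 14943 had ratios of -0.32 in leaf and -0.25 in apex, and the gene at 14961 to 28641 had -0.26 and -0.12, with pep1-1 libraries below all WT libraries in both organs, as for 3.63% of the 21852 genes. On chromosome 6 a couple 129 bp apart (34312433 to 34313003 and 34313133 to 34313569) had ratios of -1.90 and -1.41 in leaf and -1.15 and -0.97 in apex. The next short model there (34313758 to 34313943), outside the set, had means of 0.289 CPM in WT leaf and 0.0560 CPM in pep1-1 leaf, with ratios of -0.51 in leaf and -0.61 in apex.

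The other couples had smaller ratios. On chromosome 7 the couple at 6217770 to 6220594 (142 bp apart) ranged from -0.95 to -0.77 over both genes and organs, and the couple at 7932522 to 7939231 (138 bp apart) from -1.07 to -0.59. On chromosome 8 the couple at 33144318 to 33148982, 60 bp apart, ranged from -1.09 to -0.65. Both of its genes were higher in WT apex than in WT leaf, at 1.31 (SE 0.33) and 1.49 (SE 0.29), though with library totals alone the first did not pass. Both genes of each of these 3 couples stood under 4 CPM in every group.

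**Figure D5:**
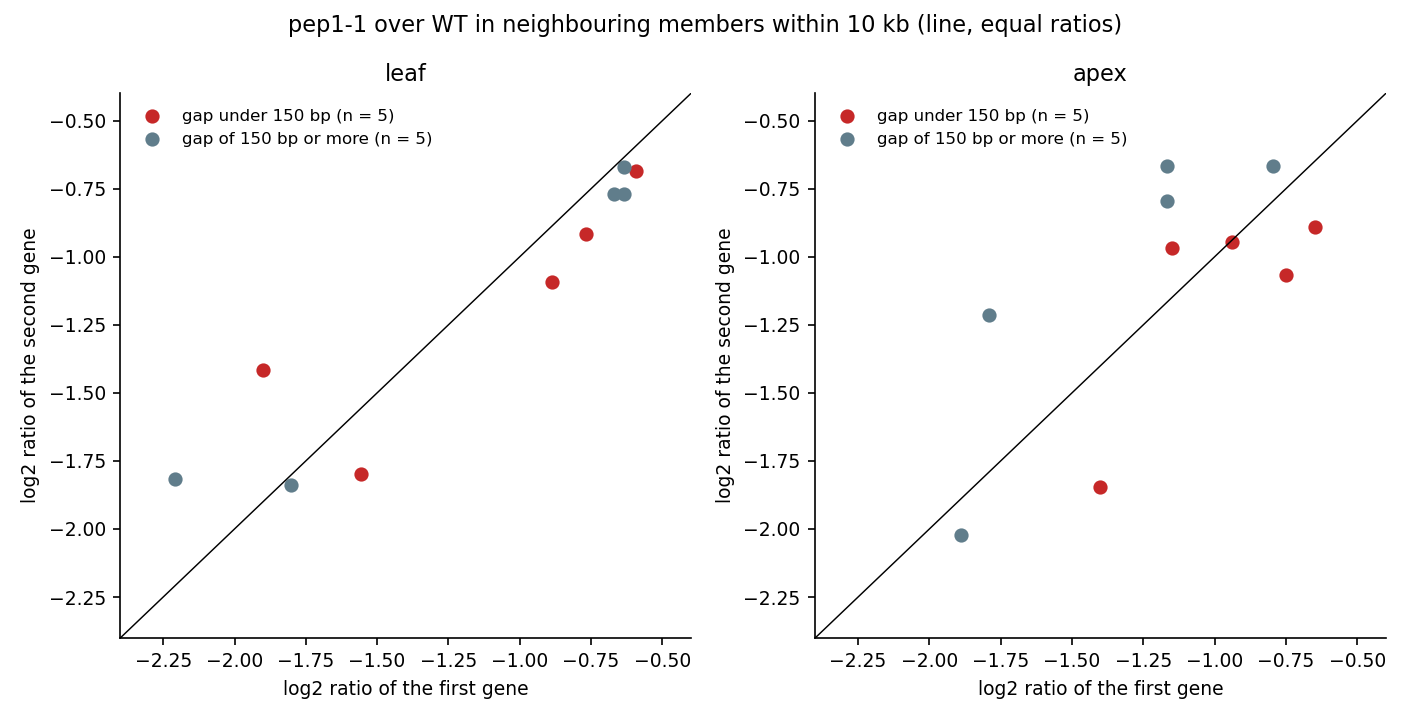
Log2 ratio, pep1-1 over WT, of the first (x axis) and second gene (y axis), by position, of the 10 pairs within 10 kb, in leaf (left) and apex (right); red, gap under 150 bp (5 pairs), grey, wider gap (5 pairs); line, equal ratios. Values range from -2.21 to -0.59 in leaf and from -2.02 to -0.65 in apex. Some pairs lie off the line, such as -1.90 and -1.41 in leaf and -1.79 and -1.21 in apex. The rule required a low ratio of both genes, and the run on chromosome 1 gives more than 1 pair.

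Most flanking genes did not meet the rule. Of 94 flanking genes that were no members, 58 had enough WT reads for the rule. In leaf 1 of them (1.72%) met it, against 0.211% of all other genes with enough reads, and in apex 2 (3.45%) met it, against 0.881%. The 1 in leaf lay 104 bp to the right of a chromosome 4 member (9366636 to 9367230), with ratios of -1.22 in leaf and -0.44 in apex. The 2 in apex were the fourth gene of the chromosome 1 run and the last short model on chromosome 6 described above. The median log2 ratio of the flanking genes was -0.06 in leaf and -0.11 in apex, against -0.03 and -0.07 for the other genes.

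Members also lay near each other with other genes between them. On chromosome 4, 3 members lay within 100 kb (22968632 to 22971700, 22989003 to 22990707 and 23063273 to 23065643), with 5 and 13 gene models between them that were not in the set. Their ratios were -0.96, -1.004 and -0.66 in leaf and -0.95, -0.95 and -0.59 in apex.

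More of these genes than of others had several annotated transcripts, 13 of 61 (21.3%) against 9.46% of the 21852 genes. Of their 19 further transcripts 17 were at or under the threshold ratio in both organs, but transcripts of one gene share reads and are no independent check. The exception with the wider gap was a gene on scaff_66610_1 (85485 to 90751). Its transcript over the first part (85485 to 87891) had 1.89 ± 0.540 and 0.772 ± 0.120 CPM in WT and pep1-1 leaf and at 1.00 ± 0.0841 and 0.740 ± 0.204 CPM in apex (SD, n = 3 each). Its transcript over the last part (88207 to 91311) had 1.65 ± 0.239 and 0.686 ± 0.166 CPM in leaf and 1.49 ± 0.191 and 0.550 ± 0.179 CPM in apex. The log2 ratio in apex was -0.28 for the first part and -0.92 for the last, while in leaf the parts were at -0.91 and -0.86. In whole organs, fewer cells that express a gene and less RNA per cell cannot be told apart, and this holds for every level given here.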

How the data were processed

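Polyadenylated RNA from leaves and shoot apices was sequenced in 12 libraries, 3 in each of 4 groups; the labels' protocols give TruSeq libraries made from 4 µg of total RNA, with 12 PCR cycles, pooled for sequencing. The authors deposited raw read counts for each transcript, as whole numbers without scaling. The submitters' processing notes list TopHat, bedtools and DESeq2 1.10.0, with no role stated. Build, annotation release and strandedness were not given in the sources used here: positions are printed as deposited, and reads of antisense genes or near-identical copies cannot be assigned with certainty.

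For each of 35465 genes the transcript with most reads was used (39814 transcripts, 3593 genes with several), and CPM are counts per library total of these rows. Apex was compared with leaf within each genotype in 1 edgeR 4.0.16 quasi-likelihood fit of all 12 libraries (R 4.3.3, TMM, filterByExpr, robust dispersion, Benjamini-Hochberg over all genes tested). SE was approximated by dividing the absolute log2 fold change by the root of the F statistic. Where replicates were not separate plants, p-values measure only the spread between samples, which may be technical. The procedure was tested on simulated counts. The genes, their lists and the rule were chosen with earlier results of these data known. Genes named were the 10 lowest mean ratios, the 6 highest WT levels, all on-off genes, all pairs, the 4 strongest organ preferences in each direction and those next to the threshold; those with the widest organ gaps, the chromosome 4 group, flanking genes and the gene with differing transcripts were picked after their values were seen. Alternatives were other scalings, DESeq2 1.42.0, pseudocounts, filters, transcripts, thinning, the replicate block and each library left out. Sequences were not used here.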

Additional observations from a re-analysis of the deposited data

How the results depend on the processing

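The member set of 61 genes was 100 with a pseudocount of 0.1 CPM, 39 with 1 CPM, 20 with a 2-fold threshold and 6 with a WT mean of at least 10 CPM in both organs (an alternative chosen after the data had been seen), by construction of these settings; the median ratios in leaf and apex were -1.31 and -1.44 with 0.1 CPM and -0.77 and -0.70 with 1 CPM. It was 53 with TMM factors, of which 51 were among the 61, and 49 after thinning, of which 46 were; 43 genes were kept under both scalings, both transcript choices and thinning together. Leaving out 1 library gave 58 to 69 genes, and 36 of the 61 were kept every time.

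Neighbouring pairs numbered 4 with 1 CPM, 3 with the 2-fold threshold, 6 and 0 with WT means of at least 1 and 10 CPM, 6 after thinning and 6 to 12 with 1 library left out. On-off members numbered 1 with WT means of at least 10 CPM, 2 and 25 with ceilings of 0.1 and 1 CPM, and 3 to 5 with 1 library left out. The cause of the shifts with thinning and left-out libraries was not tested.

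Members called between organs in WT numbered 30, and 26 to 31 with 1 library left out; in pep1-1 they numbered 36, and 32 to 37. With library totals alone, chosen after the data had been seen, 5 were higher in apex and 28 in leaf in WT, and 8 and 30 in pep1-1, and Aa_G111060 in pep1-1 was higher in leaf, at -0.56 in place of 0.02. The gene on chromosome 3 (8636330 to 8637594) kept its WT call, but its pep1-1 call (log2 fold change 1.31) ended with library totals, without each pep1-1 leaf library in turn and without pep1-1 apex replicate 2. The pep1-1 call of the gene at 38414226 on chromosome 8 (0.65) ended with library totals and without pep1-1 apex replicate 1. Same-numbered leaf and apex libraries had deviations correlated at 0.0526, -0.123 and 0.0800 in WT and 0.152, -0.124 and -0.0567 in pep1-1, which does not make them pairs. Of the leaf libraries, only WT replicate 3 and pep1-1 replicate 1 correlated best with the apex library of their own number. With the replicate block 31 and 36 members passed. Depth limits the low levels here, where 1 read was worth 0.0229 to 0.0506 CPM.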
